A study of Arabidopsis thaliana with 18 samples.

Results

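Gene expression was compared between roots grown with bisphenol S (BPS) and roots grown with bisphenol E (BPE), in the wild type of thale cress, Arabidopsis thaliana. The comparison takes the 3 libraries titled as BPS roots and the 3 titled as BPE roots, 6 of the 18 libraries of the series, and 19484 of 33602 loci, those whose level averaged 1 FPKM or more across the series. FPKM is the number of fragments per kilobase of transcript, scaled to the library's total of mapped fragments. The study asked about redox processes in roots exposed to bisphenols, and its other groups were a control, BPA, BPB and BPF with 3 libraries each. All seedlings were wild type and grew for 14 days on half-strength salt medium with sucrose and agar that held the compound, and the control plates held dimethyl sulfoxide (DMSO) below 0.01% by volume. Doses of 1, 3 and 10 mg/L stand in the protocol without being assigned to libraries. BPS and BPE are therefore not known to match in dose, and each difference below may be one of compound, of dose or of both, which cannot be told apart here. The pair was taken because its responses were the least alike among the compounds, so the number of differing genes describes this pair.

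Bisphenols are a pair of phenol rings joined by a bridge. In BPE the bridge is a carbon that carries a methyl group, and in BPS it is a sulfonyl group. Roots take up phosphate, sulfate, nitrate, ammonium and metals through transporters whose transcripts are commonly raised when the nutrient inside the plant runs short. The phosphate starvation response works through the regulator PHR1, which binds the P1BS element in promoters, and SPX proteins hold PHR1 back when phosphate is ample. Cold and dehydration genes encode protective proteins and are driven through the dehydration response element (DRE) by CBF factors and through the abscisic acid response element (ABRE) by the hormone abscisic acid.

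The BPS libraries were less alike among themselves than the BPE libraries. Totals recovered from the steps between low values were about 18000000 to 22100000 fragments in the 6 libraries, which puts 27.0 to 33.2 fragments behind 1 FPKM of a gene of 1.5 kb. Spearman correlations across genes were 0.972 to 0.980 among the BPE libraries, 0.930 to 0.961 among the BPS libraries, and 0.840 to 0.898 between the groups. On the first principal component of all 18 libraries, with 36.9% of the variance, BPE lay at -59.48 to -49.56 and BPS at 40.7 to 66.21. BPS replicate 3 stood apart from its group on the third component (16.1% of the variance) at 45.2, against -35.29 and -12.34 for replicates 1 and 2. BPB replicate 3 lay further out on that component, at 59.86, with BPB replicates 1 and 2 at -20.47 and 8.02. The labels do not tell whether replicates are separate plates or plants. Every p-value refers to the spread within groups, pooled over all 18 libraries, which may be technical. All 10 root markers passed the filter, led by BGLU23, a root beta-glucosidase, at 3356, 2861 and 2644 FPKM in BPE and 2897, 4144 and 3042 in BPS, with overlapping values and a log2 difference of 0.17 (95% interval -0.28 to 0.63).

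Between BPS and BPE, 7686 of the 19484 genes (39.4%) were called at an adjusted p below 0.05 in limma, 4058 of them higher in BPS (20.8%) and 3628 lower (18.6%). The median log2 difference (BPS minus BPE) over all genes tested was 0.04. Differences of at least 2-fold on the log2(FPKM + 1) scale were called for 1643 genes higher in BPS (8.43%) and 1353 lower (6.94%), and those of at least 8-fold for 100 (0.513%) and 81 (0.416%). The 3 BPS and 3 BPE values did not overlap for 9777 genes (50.2%), whether called or not. Against the shared control libraries, 4094 genes (21.0%) were called in BPS, 2396 higher (12.3%) and 1698 lower (8.71%), and 2783 (14.3%) in BPE, 1770 higher (9.08%) and 1013 lower (5.2%). Those comparisons use the same controls, so their values are set side by side for each gene and their overlap is not read. Log2 differences below are BPS minus BPE on the log2(FPKM + 1) scale with their standard error (SE), and all adjusted p-values are limma's with Benjamini-Hochberg adjustment over the 19484 genes. In the gene lists, a count of 2 or fewer in one direction could move by 1 or 2 when a single library was left out, and wider moves of such counts are given. For larger counts only the widest moves relative to the count are given. Others moved too, such as peroxidases higher in BPS (21 to 29), glutathione S-transferases lower (13 to 18) and auxin genes higher (7 to 9).

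Among the 15 genes furthest higher in BPS, 4 were of the phosphate starvation list (PS2, MGD3, IPS1 and SPX3), and the 15 furthest lower included RD29A of the cold and dehydration list. Promoters were searched for the elements named above, in the 250 bases before the annotated start (RefSeq, TAIR10.1), on both strands. The 4 windows below belong to PS2 and SPX3, among the 15 genes furthest higher in BPS, and to RD29A and LTI30, both in the cold and dehydration list. Capitals mark P1BS (GNATATNC) in the first pair and the DRE core (CCGAC, or GTCGG on the other strand) in the second pair. The windows are PS2 on the minus strand at chr1:27466349-27466598, SPX3 on the plus strand at chr2:18606160-18606409, RD29A on the plus strand at chr5:21240467-21240716, and LTI30 on the plus strand at chr3:18940393-18940642.
PS2: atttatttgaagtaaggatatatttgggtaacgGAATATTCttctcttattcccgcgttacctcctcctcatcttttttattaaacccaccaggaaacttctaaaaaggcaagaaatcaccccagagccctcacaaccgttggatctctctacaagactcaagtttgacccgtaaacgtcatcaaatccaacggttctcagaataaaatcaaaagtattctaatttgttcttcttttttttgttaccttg
SPX3: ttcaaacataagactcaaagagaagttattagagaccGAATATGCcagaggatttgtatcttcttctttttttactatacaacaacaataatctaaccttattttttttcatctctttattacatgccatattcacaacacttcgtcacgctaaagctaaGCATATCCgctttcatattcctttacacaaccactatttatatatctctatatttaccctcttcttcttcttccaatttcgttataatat
RD29A: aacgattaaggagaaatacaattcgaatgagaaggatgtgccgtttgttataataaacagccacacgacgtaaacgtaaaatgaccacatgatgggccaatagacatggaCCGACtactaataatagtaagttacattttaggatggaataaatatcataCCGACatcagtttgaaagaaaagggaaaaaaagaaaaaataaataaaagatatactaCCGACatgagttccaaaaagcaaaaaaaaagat
LTI30: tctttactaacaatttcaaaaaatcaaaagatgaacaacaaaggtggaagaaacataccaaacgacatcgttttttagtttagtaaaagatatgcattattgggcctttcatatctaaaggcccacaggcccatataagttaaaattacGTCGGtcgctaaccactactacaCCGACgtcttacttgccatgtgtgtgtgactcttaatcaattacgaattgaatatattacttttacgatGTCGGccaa
In these windows SPX3 held 2 P1BS matches and PS2 held 1, while RD29A and LTI30 each held 3 DRE cores and no ABRE core (ACGTG). Bases outside the windows were not searched, so an element may lie beyond them. The 4 windows shown all hold the marked motif, and other genes did not. MGD3, IPS1 and PEPC1 held no P1BS, and KIN1, KIN2 and COR47 held no DRE core. P1BS was found in 5 of the 14 windows available for the 15 genes furthest higher in BPS (35.7%) and in 6 of 26 phosphate starvation genes (23.1%), against 5.51% of all 19210 windows. Among the 15 genes furthest lower, 6 windows held a DRE core (40.0%), against 13.0% of all windows, and 6 held an ABRE core (40.0%), against 24.0%. In the cold and dehydration list the DRE core was in 4 of 12 windows (33.3%) and the ABRE core in 6 of 12. Among the furthest higher genes the DRE core was in 2 windows (14.3%) and the ABRE core in 5 (35.7%), and P1BS was in 1 window of the furthest lower genes (6.67%). Of the other motifs searched, the copper response core GTAC was in 34.5% of all windows, 35.7% of the furthest higher and 40.0% of the furthest lower. The W-box core TTGAC was in 45.5%, 28.6% and 46.7%, and the heat shock element GAANNTTC in 9.33%, 35.7% and 6.67%. P1BS was also in 3 of the 12 cold and dehydration windows (25.0%), and the heat shock element in 9 of the 26 phosphate starvation windows (34.6%). The P1BS match marked in PS2 also fits the letters of the heat shock element, so the shares of these motifs are not fully separate. The ABRE core also lies within the G-box CACGTG. A match is a run of letters, not a shown binding site.

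Phosphate starvation genes were the list with the largest share of members higher in BPS. Of 27 members, 26 were tested, and 24 were higher in BPS and 1 lower, with a median log2 difference of 2.57. That is 96.2% called, against 39.4% of all genes. Against control the median was 1.64 in BPS, with 12 members called higher and 2 lower, and -1.23 in BPE, with 6 called lower. Of all genes, 12.3% were called higher and 8.71% lower in BPS, and 5.2% lower in BPE. The summed level of the list was 3070 to 6130 FPKM in BPS, 1440 to 2100 in the controls and 518 to 708 in BPE. In bulk roots, a change in the number of cells of a type and one in RNA per cell cannot be told apart. All 26 tested members were lowest in BPS replicate 1 among the BPS libraries. Without that library, as without any other single one, 23 or 24 members were called higher.

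**Figure D1:**
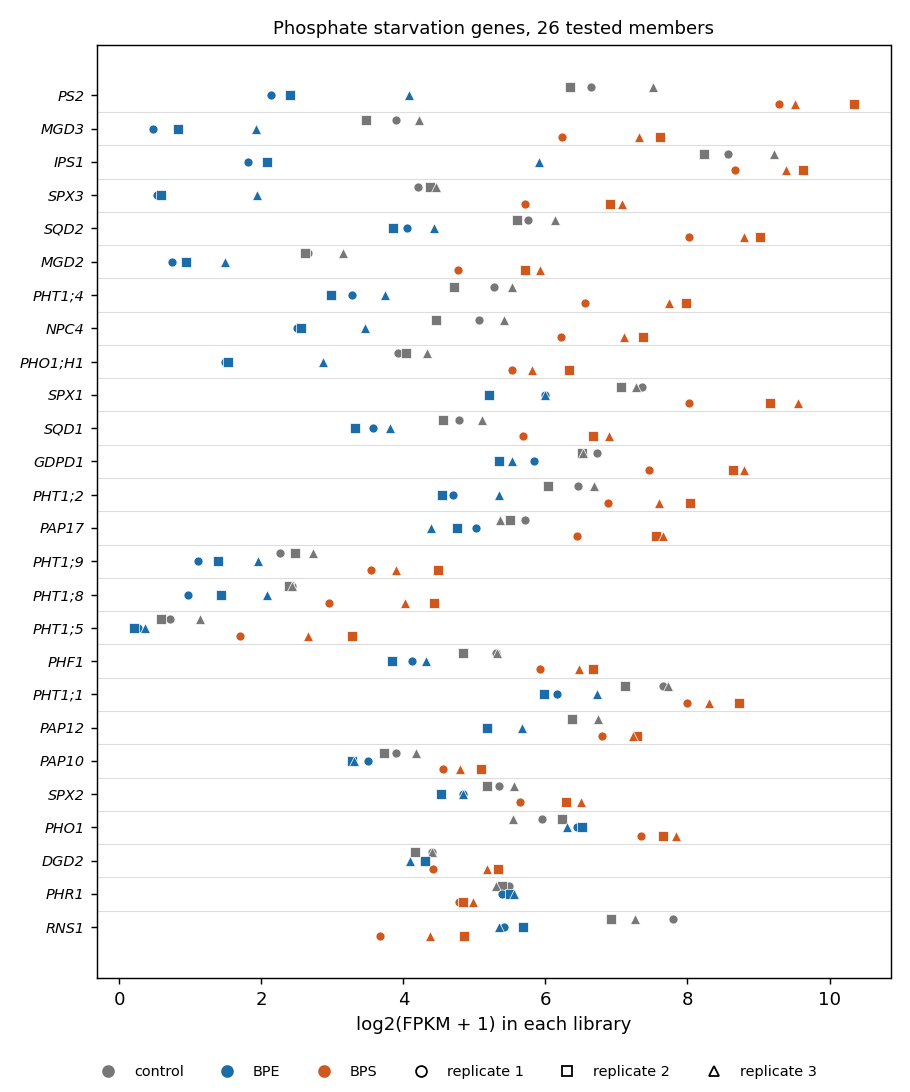
Level of each of the 26 tested phosphate starvation genes in the control, BPE and BPS libraries, as log2(FPKM + 1) on the horizontal axis. Each symbol is 1 library and genes are ordered by their BPS minus BPE difference, from PS2 (6.85) down to RNS1 (-1.18). The BPS points lie to the right of the BPE points for all genes but PHR1 and RNS1 at the foot.

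Among the enzymes, PS2, a phosphatase induced by phosphate starvation, stood at 3.38, 4.31 and 15.9 FPKM in the BPE libraries, 627, 1305 and 728 in the BPS libraries and 99.2, 80.5 and 181 in the controls. The groups did not overlap, and the controls lay between them. The log2 difference was 6.85 ± 1.01, adjusted p = 0.000277, the largest of the list, and 7.45 without BPE replicate 3. Against control PS2 was lower in BPE at -3.96 (adjusted p = 0.0217), and in BPS it stood at 2.88 and was not called (adjusted p = 0.0557). PEPC1, annotated as a phosphatase-related protein, had the largest called difference. Its levels were 0.861, 0.168 and 1.998 FPKM in BPE and 124, 376 and 285 in BPS, a log2 difference of 6.99 ± 1.16 (adjusted p = 0.000536). This locus was written into the phosphate starvation list and left out because the written symbol did not match the annotation, so the counts do not include it.

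Enzymes that replace phospholipids with other lipids were higher in BPS. MGD3, which makes monogalactolipid, was at 0.395, 0.778 and 2.78 FPKM in BPE, 74.3, 194 and 159 in BPS and 13.9, 10.1 and 17.7 in the controls. Values did not overlap, and the log2 difference was 5.98 ± 1.09 (adjusted p = 0.000915). MGD2 (4.41, adjusted p = 0.000471), the sulfolipid synthase gene SQD2 (4.50, adjusted p = 0.00067) and the phospholipase gene NPC4 (4.06, adjusted p = 0.00175) also differed, and these were named after their values were seen.

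Transporters followed the same direction. PHT1;1, a high-affinity phosphate transporter, was at 70.8, 61.9 and 105 FPKM in BPE, 254, 424 and 315 in BPS and 199.6, 138 and 209.9 in the controls, with no overlap, and differed by 2.05 ± 0.25 (adjusted p = 0.000137). Its near-identical neighbour PHT1;2 was at 24.9, 22.4 and 39.7 FPKM in BPE and 117, 262 and 193 in BPS, a difference of 2.65 ± 0.35 (adjusted p = 0.000175). Fragments could be split between those genes, so each single value is uncertain. PHF1, which lets PHT1 transporters leave the endoplasmic reticulum, was at 16.5, 13.3 and 18.9 FPKM in BPE and 59.7, 101 and 87.9 in BPS, with no overlap and a difference of 2.26 ± 0.36 (adjusted p = 0.000405).

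Of the regulators, SPX3 was at 0.443, 0.506 and 2.85 FPKM in BPE, 51.5, 119 and 134 in BPS and 17.37, 19.7 and 21.0 in the controls. The groups did not overlap, and it differed by 5.54 ± 1.08 (adjusted p = 0.00137). The noncoding RNA IPS1, which captures the phosphate-responsive microRNA miR399, was at 2.53, 3.23 and 58.9 FPKM in BPE and 406, 789 and 666 in BPS, with BPE replicate 3 far above the other BPE libraries. Its difference of 5.96 ± 1.37 (adjusted p = 0.00382) was 7.28 without that library and 5.23 without BPE replicate 1. The controls were at 378, 299 and 592 FPKM and overlapped BPS. PHR1, the regulator itself, went the other way at 40.7, 44.4 and 46.2 FPKM in BPE and 26.6, 27.6 and 30.6 in BPS, a difference of -0.61 ± 0.11 (adjusted p = 0.000855). RNS1, a ribonuclease gene, was not called, with an interval of -2.45 to 0.09. NPC5, at most 0.104 FPKM in the 6 libraries, was not tested. PHR1 and RNS1 were also named after their values were seen.

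Sulfur deficiency genes were higher in BPS for 12 of 15 members and lower for none, with a median log2 difference of 1.95. That is 80.0% called, against 39.4% of all genes. The median against control was 1.06 in BPS and -0.77 in BPE. Only 2 members were called higher than control in BPS and 0 lower, where 12.3% of all genes were higher. In BPE 3 were called lower than control and 0 higher, where 5.2% of all genes were lower. SULTR2;1, a sulfate transporter of vascular tissue, was at 3.71, 7.36 and 13.1 FPKM in BPE, 51.7, 202 and 154 in BPS and 93.3, 78.9 and 126 in the controls. The BPS values overlapped the controls and not BPE, and the difference was 3.85 ± 0.74 (adjusted p = 0.00129). APR3, which reduces activated sulfate, was at 20.7, 23.3 and 23.57 FPKM in BPE and 55.5, 83.5 and 102 in BPS, and the vacuolar exporter SULTR4;2 at 2.53, 2.67 and 3.42 FPKM in BPE and 8.50, 17.61 and 17.5 in BPS. Both were called, at 1.75 ± 0.27 (adjusted p = 0.000338) and 1.95 ± 0.29 (adjusted p = 0.000291). Sulfite reductase SIR, the most abundant member, was not called, at 0.12 (interval -0.18 to 0.42).

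The BPS libraries differed among themselves for these genes. SDI1, which lowers glucosinolate synthesis under sulfur deficiency, was at 0.770, 1.01 and 1.93 FPKM in BPE and at 6.55, 129 and 163 in BPS, so replicate 1 lay far below the other BPS libraries and still above BPE. BPS replicate 1 was the lowest BPS library for 14 of the 15 members. SDI1 was called at 4.64 ± 1.18 (adjusted p = 0.00694), and at 6.06 without BPS replicate 1, 4.01 without replicate 2 and 3.84 without replicate 3. The beta-glucosidase gene BGLU28, 0.0780, 0.0793 and 0.115 FPKM in BPE and 4.53, 112 and 46.1 in BPS, differed by 4.82 ± 1.09 (adjusted p = 0.00339), and by 6.06 and 3.89 without BPS replicate 1 or 2. SULTR2;1 reached 4.43 without BPS replicate 1. The number of members called higher was 10 to 14 when single libraries were left out. SDI1 was named after its values were seen.

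**Figure D2:**
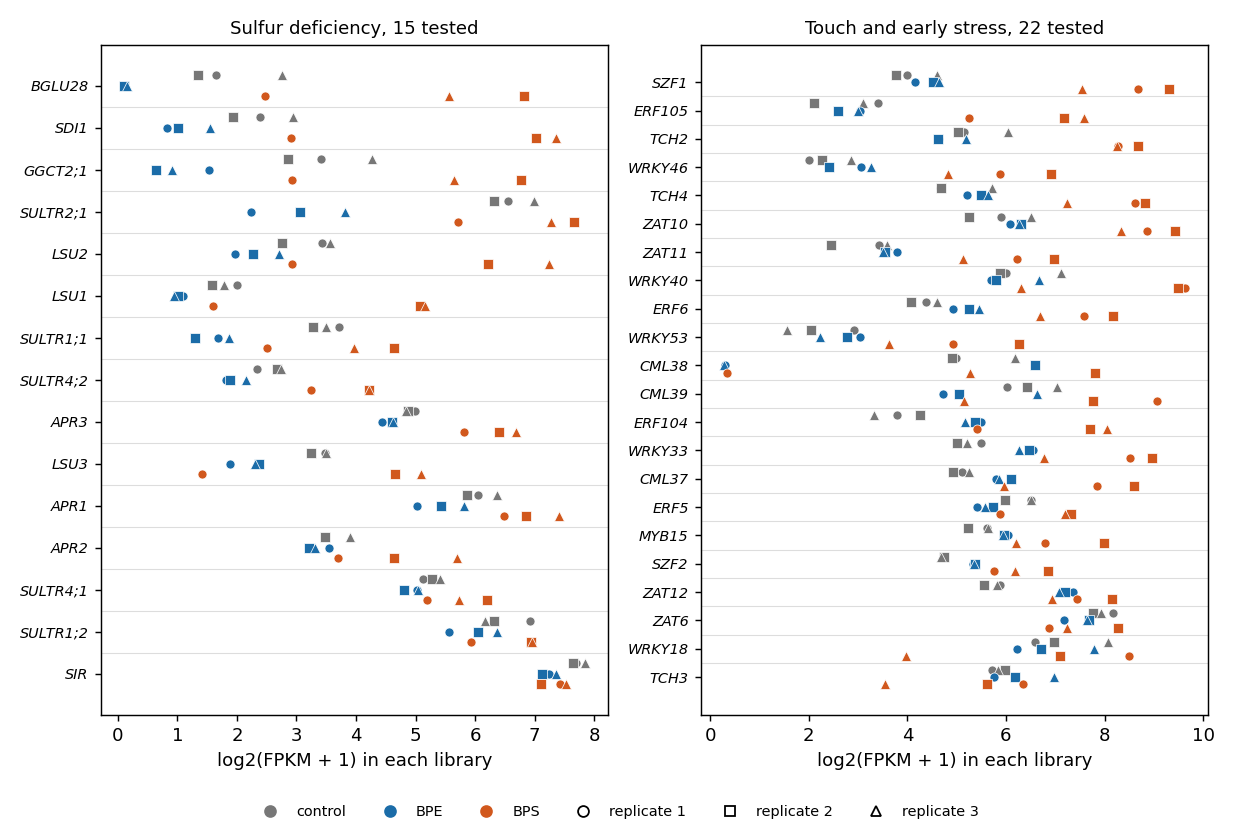
Level of each tested gene of the sulfur deficiency list (left, 15 genes) and of the touch and early stress list (right, 22 genes) as log2(FPKM + 1), with 1 symbol per library and colours for control, BPE and BPS. On the left, BPS replicate 1 (circle) is the lowest BPS library for 14 of 15 genes. On the right, BPS replicate 3 (triangle) is the lowest BPS library for 16 of 22 genes.

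Ammonium and nitrate transporters were among the genes higher in BPS. Of 19 tested nitrate and ammonium genes, 7 were higher in BPS and 2 lower, 47.4% in all against 39.4% of all genes, with a median of 0.53. The count of higher members was 4 without BPS replicate 2 and also without BPE replicate 2. AMT1;2 was at 8.83, 10.8 and 13.5 FPKM in BPE, 54.0, 99.2 and 102 in BPS and 29.5, 26.6 and 21.0 in the controls, with no overlap of the bisphenol groups. It differed by 2.80 ± 0.26 (adjusted p = 7.36e-05), with 1.65 from control in BPS (adjusted p = 0.000793) and -1.15 in BPE (adjusted p = 0.0134). AMT1;3, another root ammonium transporter, was at 6.06, 6.18 and 7.75 FPKM in BPE and 23.2, 61.4 and 56.5 in BPS and differed by 2.54 ± 0.33 (adjusted p = 0.000166). The high-affinity nitrate transporter gene NRT2.1 was at 4.24, 2.77 and 3.29 FPKM in BPE, 18.5, 119 and 47.3 in BPS and 83.1, 28.8 and 106 in the controls. Its difference of 3.46 ± 0.81 (adjusted p = 0.00417) was 4.12 without BPS replicate 1 and 2.81 without BPS replicate 2.

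The genes of iron uptake at the root surface were near 0 in the BPE libraries. IRT1, the iron transporter gene, was at 0.144, 0 and 0 FPKM in BPE, 3.00, 3.48 and 9.42 in BPS and 3.04, 2.21 and 4.23 in the controls. FRO2, the ferric reductase that feeds it, was at 0.147, 0.257 and 0.280 FPKM in BPE and 4.33, 5.31 and 9.79 in BPS, with 3.55, 3.18 and 3.55 in the controls. Neither gene overlapped between the bisphenol groups, and they differed by 2.45 ± 0.31 (adjusted p = 0.00015) and 2.54 ± 0.25 (adjusted p = 7.36e-05). Both stay low on the FPKM scale, so these log2(FPKM + 1) differences understate the ratio of levels. Their activator FIT1 was at 7.29, 5.04 and 10.7 FPKM in BPE and 16.0, 27.5 and 31.5 in BPS, a difference of 1.58 ± 0.24 (adjusted p = 0.000291). BTS, a ligase that restrains the iron response, was lower in BPS, at 39.9, 46.7 and 34.8 FPKM in BPE against 14.5, 17.1 and 16.9 in BPS (-1.26 ± 0.24, adjusted p = 0.00116). Of 19 tested iron genes 7 were higher in BPS and 2 lower, 47.4% in all against 39.4% of all genes. Ferritin FER1, the most abundant, was not called at 0.45 (interval -0.14 to 1.04).

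Of 10 tested copper uptake genes 4 were lower in BPS and 0 higher, 40.0% in all against 39.4% of all genes. Against control 7 were called higher in BPE and 2 in BPS, where 9.08% and 12.3% of all genes were. COPT1, the main root copper importer, was at 9.51, 14.2 and 10.7 FPKM in BPE, 6.46, 3.05 and 3.80 in BPS and 5.99, 7.68 and 5.63 in the controls. The bisphenol groups did not overlap, and the difference was -1.23 ± 0.21 (adjusted p = 0.000627). YSL2, a metal-chelate transporter gene, was at 13.2, 21.6 and 19.1 FPKM in BPE and 7.33, 8.76 and 11.7 in BPS (-0.88 ± 0.21, adjusted p = 0.00542). COPT2, another copper importer gene, and FRO4, a reductase gene, were also called. COPT2 was at 0.319, 3.00 and 3.96 FPKM in BPE and 0.303, 0.171 and 0.695 in BPS, so BPE replicate 1 lay inside the BPS range (-1.11 ± 0.38, adjusted p = 0.0296). Its call was lost without BPS replicate 1 or 2 or BPE replicate 2 or 3, at -1.08, -0.998, -0.90 and -0.74, and it stood at -1.70 without BPE replicate 1. FRO4 was lost without BPS replicate 1 (-1.09), BPE replicate 2 (-1.07) or BPE replicate 3 (-0.67), and stood at -1.76 without BPE replicate 1. Without BPS replicate 1, and likewise without BPE replicate 2 or 3, 2 members were lower.

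Cold and dehydration genes held some of the largest levels and differences of the whole comparison. Of 17 members 12 were tested, 7 were lower in BPS and 3 higher, with a median log2 difference of -1.87. Those called made up 83.3%, against 39.4% of all genes. The summed level of the list was 7990 to 10400 FPKM in BPE, 7790 to 9440 in the controls and 1450 to 2030 in BPS. Against control the median was -1.11 in BPS, with 6 members called lower, and 0.16 in BPE, with 0 called lower. Of all genes, 8.71% were called lower in BPS and 5.2% in BPE. RD29A (also LTI78), a classic marker of cold, drought and abscisic acid, was at 641, 830.0 and 480.2 FPKM in BPE, 23.4, 45.3 and 23.59 in BPS and 1004, 769 and 662 in the controls. BPE lay near the controls and BPS far below both, and the difference was -4.39 ± 0.55 (adjusted p = 0.000143).

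The dehydrin genes LTI30 and COR47, whose proteins protect cells from water loss, showed the same order at high levels. RD29B, COR15A, COR15B, RAB18 and RD20 of this list were not tested, with at most 5.17 FPKM in the 6 libraries. LTI30 was at 2544, 3469 and 3036 FPKM in BPE, 506, 318 and 234 in BPS and 2947, 2630.0 and 2482 in the controls, a difference of -3.15 ± 0.40 (adjusted p = 0.000149). COR47, the most abundant member, was at 3188, 4051 and 3638 FPKM in BPE and 1090.0, 1013 and 819 in BPS, a difference of -1.90 ± 0.28 (adjusted p = 0.000271). For both, no BPS library reached a BPE library. KIN1 and KIN2, near-identical neighbours whose fragments could be split, differed by -2.70 ± 0.33 (adjusted p = 0.000137) and -2.92 ± 0.29 (adjusted p = 7.36e-05).

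The 3 higher members were CBF1, CBF2 and CBF3, which encode activators of cold-regulated genes, sit side by side in the genome and resemble each other, so their values are uncertain one by one. CBF2 was at 6.55, 5.08 and 2.097 FPKM in BPE, 8.84, 45.9 and 47.7 in BPS and 1.41, 2.07 and 1.001 in the controls, with BPS replicate 1 just above BPE. It differed by 2.44 ± 0.61 (adjusted p = 0.00631), and by 3.20 without BPS replicate 1. CBF1 (1.97) and CBF3 (2.00) reached 2.61 and 2.64 without it. The activators and the protective genes thus differed in opposite directions. The CBF genes were named after their values were seen.

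Abscisic acid genes were lower in BPS for 7 of 11 tested members and higher for 1, 72.7% in all against 39.4% of all genes. Against control 7 were called higher in BPE and 0 lower, where 9.08% of all genes were higher. The hormone's response raises the phosphatases that dampen it. HAI1 was at 33.6, 42.1 and 11.4 FPKM in BPE, 1.39, 2.47 and 3.96 in BPS and 3.99, 4.89 and 2.03 in the controls, a difference of -2.94 ± 0.46 (adjusted p = 0.000405). ABI1, the most abundant, was at 190.5, 257 and 128 FPKM in BPE and 23.5, 50.1 and 59.2 in BPS (-2.13 ± 0.44, adjusted p = 0.00184), and HAB1 differed by -1.34 ± 0.28 (adjusted p = 0.00196). For each of these, every BPE library lay above every BPS library, with BPE replicate 3 the lowest of its group. The higher member was CYP707A3, the enzyme that breaks abscisic acid down, at 2.58, 4.38 and 5.62 FPKM in BPE, 64.0, 127 and 63.0 in BPS and 5.53, 4.48 and 8.48 in the controls. It differed by 4.01 ± 0.58 (adjusted p = 0.000253) with no overlap.

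**Figure D3:**
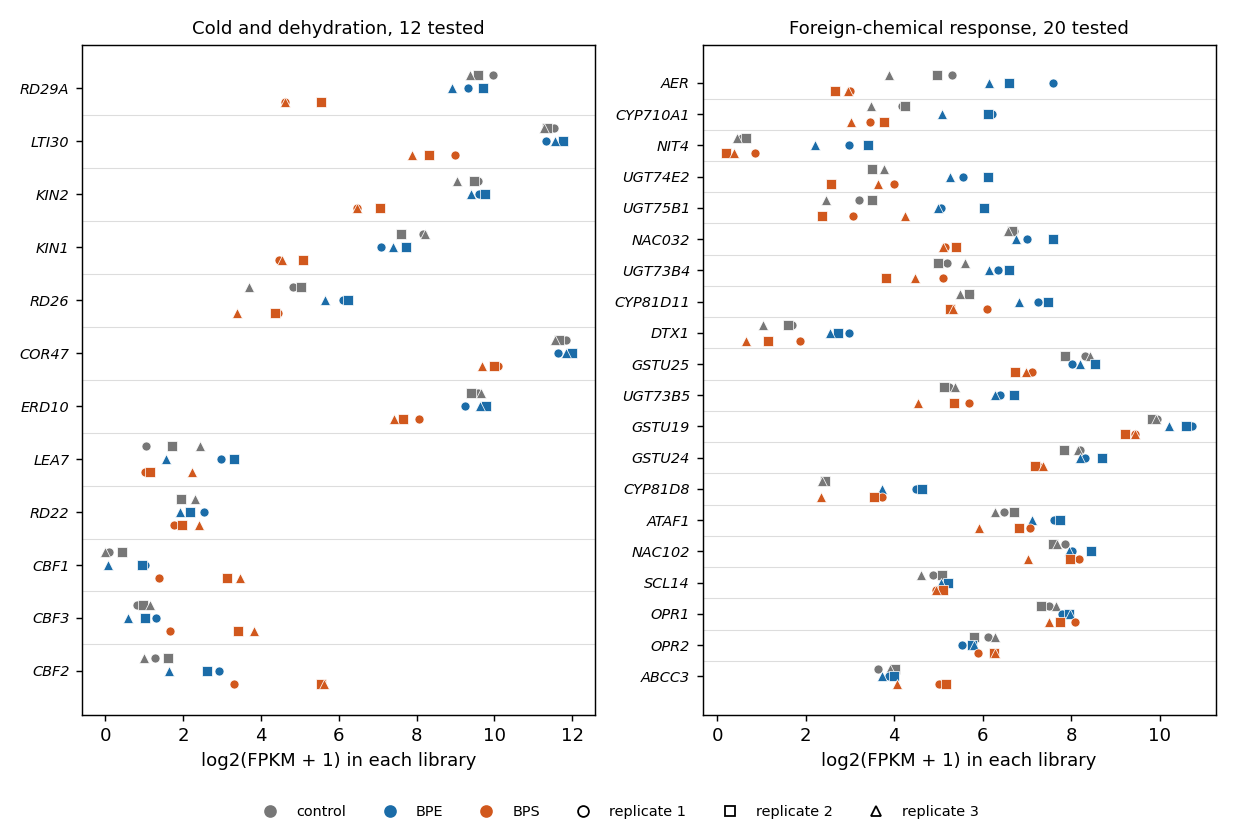
Level of each tested cold and dehydration gene (left, 12 genes) and foreign-chemical response gene (right, 20 genes) in each control, BPE and BPS library, as log2(FPKM + 1). Genes are ordered from the lowest BPS minus BPE difference at the top to the highest at the foot. For RD29A, LTI30 and COR47 the BPE points sit with the controls and the BPS points lie to the left.

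Genes commonly induced by foreign chemicals were lower in BPS for 13 of 20 tested members and higher for 2, with a median of -1.28. Those called made up 75.0%, against 39.4% of all genes. The median against control was -0.07 in BPS and 1.06 in BPE, with 8 members called higher in BPE, against 9.08% of all genes. AER, a reductase of reactive carbonyls, was at 192, 94.9 and 69.3 FPKM in BPE, 7.07, 5.29 and 6.80 in BPS and 38.8, 30.1 and 13.9 in the controls, a difference of -3.90 ± 0.57 (adjusted p = 0.000271). NIT4, a nitrilase gene, was at 6.83, 9.69 and 3.62 FPKM in BPE and 0.804, 0.151 and 0.307 in BPS, where it lay near the controls (-2.38 ± 0.32, adjusted p = 0.000179). CYP81D11, a cytochrome P450 gene, was at 151, 178 and 111 FPKM in BPE and 67.8, 37.5 and 39.1 in BPS (-1.62 ± 0.25, adjusted p = 0.000357). NAC032, a stress transcription factor gene, differed by -1.90 ± 0.23 (adjusted p = 0.000137). None of these overlapped between the groups.

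Enzymes that attach glutathione or sugar to foreign compounds were divided. Their lists share GSTU19, GSTU24, GSTU25, UGT73B4, UGT73B5, UGT74E2 and UGT75B1 with the foreign-chemical list, so these counts are not separate. Of 38 tested glutathione S-transferases 18 were lower in BPS and 9 higher, 71.1% in all against 39.4% of all genes, with a median of -0.62. The summed level was 4700 to 6060 FPKM in BPS, 8520 to 9760 in BPE and 8320 to 9340 in the controls. GSTU17 was at 160.0, 170.3 and 123 FPKM in BPE and 7.22, 10.6 and 10.2 in BPS, with 238, 166 and 129 in the controls (-3.88 ± 0.54, adjusted p = 0.000213). GSTU4 was at 237, 328 and 278 FPKM in BPE and 35.7, 21.4 and 10.9 in BPS (-3.71 ± 0.45, adjusted p = 0.000124), and its tandem neighbour GSTU3 differed by -3.66 ± 0.41 (adjusted p = 9.44e-05), with similar sequences that make each value uncertain. GSTU27 went the other way at 17.0, 17.56 and 27.1 FPKM in BPE and 76.5, 109 and 119 in BPS (2.26 ± 0.25, adjusted p = 9.44e-05). GSTU19, the most abundant foreign-chemical gene, was at 1700.0, 1552 and 1180.0 FPKM in BPE and 689, 591 and 693 in BPS (-1.15 ± 0.21, adjusted p = 0.000965). The count of higher transferases was 5 without BPE replicate 1.

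Of 22 tested UDP-glucosyltransferases, 9 were lower in BPS and 5 higher, 63.6% in all against 39.4% of all genes. UGT74E2, a stress-induced glucosyltransferase of an auxin precursor, was at 46.2, 68.0 and 37.1 FPKM in BPE, 15, 4.91 and 11.4 in BPS and 10.3, 10.3 and 12.7 in the controls. All BPE values stood above the controls and the BPS values lay around them, and the difference was -2.24 ± 0.37 (adjusted p = 0.00052). UGT73B2 differed by -1.28 ± 0.24 (adjusted p = 0.0011). UGT72E2, which glucosylates lignin precursors, was higher in BPS, at 38.9, 25.2 and 24.7 FPKM in BPE against 68.6, 224 and 233 in BPS (2.36 ± 0.45, adjusted p = 0.00116), and UGT72E1 differed by 1.55 ± 0.29 (adjusted p = 0.00114).

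Root hair genes were higher in BPS for 20 of 25 members and lower for none, with a median log2 difference of 1.57. That is 80.0% called, against 39.4% of all genes. The median against control was 0.15 in BPS, with 1 member called higher, and -1.50 in BPE, with 15 called lower. Of all genes, 12.3% were called higher in BPS and 5.2% lower in BPE. LRX1, a wall protein of growing hairs, was at 5.85, 4.15 and 8.72 FPKM in BPE, 29.4, 46.6 and 28.3 in BPS and 30.1, 16.9 and 19.9 in the controls. BPS and control values overlapped and BPE lay below both, and the difference was 2.31 ± 0.42 (adjusted p = 0.000945). PRP1, a proline-rich wall protein gene, was at 6.37, 1.93 and 5.08 FPKM in BPE and 30.5, 47.1 and 30.5 in BPS (2.84 ± 0.50, adjusted p = 0.000719), and COBL9 at 5.07, 5.13 and 7.59 FPKM in BPE and 22.7, 31.2 and 22.6 in BPS (1.94 ± 0.34, adjusted p = 0.000685). AGP3, the most abundant, differed by 1.75 ± 0.46 (adjusted p = 0.00823).

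Of the hair regulators in the list, RSL4 was called and RHD6, RSL1, RSL2 and LRL3 were not, at 0.62, 0.69, 1.28 and 0.81. RHD6, which starts hair formation, was at 13.1, 16.7 and 14.9 FPKM in BPE and 19.5, 21.3 and 30.4 in BPS and had an interval of -0.02 to 1.26. RSL4, which sets hair length, was at 4.33, 3.44 and 8.16 FPKM in BPE and 8.96, 10.6 and 8.79 in BPS, called at 0.80 ± 0.25 (adjusted p = 0.0214). Its call was lost without BPS replicate 2 (0.72), BPE replicate 1 (0.71) or BPE replicate 2 (0.58). Root hair genes higher in BPS numbered 10 without BPS replicate 2 and 13 without BPE replicate 1. These regulators were named after their values were seen.

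Mitotic genes were higher in BPS for 19 of 21 members and lower for none, 90.5% called against 39.4% of all genes. Differences were small and even, 0.30 to 1.43, with a median of 1.05. The summed level was 316 to 412 FPKM in BPS, 228 to 268 in the controls and 142 to 178 in BPE. Against control 4 members were called higher and 0 lower in BPS, and 3 lower and 0 higher in BPE. Of all genes, 12.3% were called higher in BPS and 5.2% lower in BPE. CDKB2;1, a kinase of the entry into mitosis, was at 17.8, 15.7 and 20.3 FPKM in BPE, 37.6, 38.2 and 48.5 in BPS and 31.2, 31.3 and 31.1 in the controls. The controls lay between the groups, and the difference was 1.16 ± 0.20 (adjusted p = 0.000587). The cytokinesis kinesin gene HIK was at 3.43, 4.59 and 5.09 FPKM in BPE and 11.8, 11.9 and 15.9 in BPS (1.40 ± 0.24, adjusted p = 0.000647). KN, a syntaxin of the cell plate and the most abundant member, was at 20.6, 20.8 and 25.5 FPKM in BPE and 47.4, 43.5 and 58.0 in BPS (1.12 ± 0.24, adjusted p = 0.00238). Past 2-fold, 11 members were called higher, against 8.43% of all genes. Of the 10 root markers 2 were higher in BPS, COBL9 and CASP1, 1 was lower and 7 were not called, with a median of -0.04. That is 30.0% called against 39.4% of all genes. The lower one was WOX5, the gene of the quiescent centre, at 12.5, 11.7 and 8.04 FPKM in BPE against 1.87, 2.104 and 2.94 in BPS, with 14.0, 12.4 and 8.68 in the controls (-1.82 ± 0.40, adjusted p = 0.00304). The tip markers PLT1 (-0.153, interval -0.59 to 0.28), PLT2 (-0.46, interval -0.88 to -0.03), SCR (0.06, interval -0.35 to 0.47) and PIN2 (-0.14, interval -0.47 to 0.19) were not called.

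**Figure D4:**
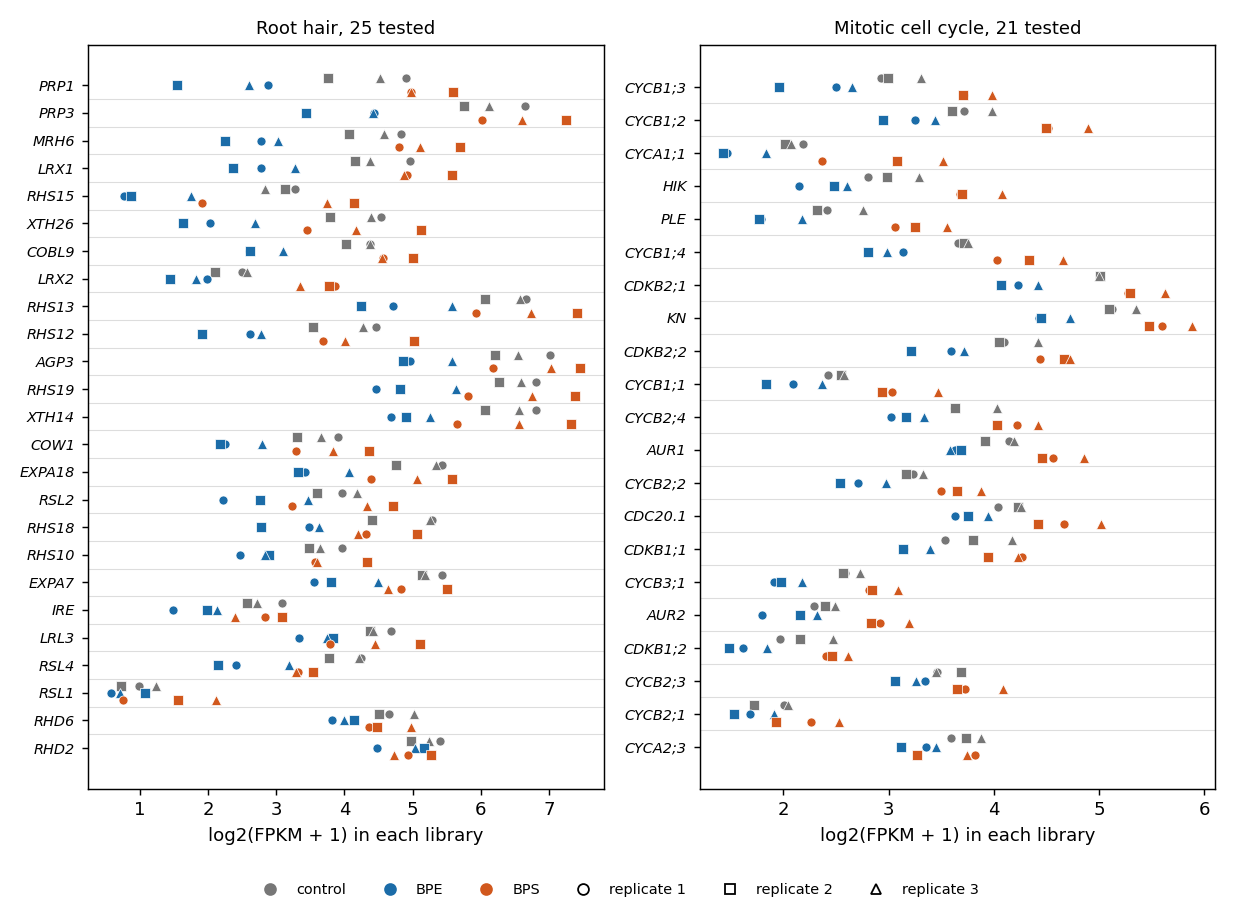
Level of each root hair gene (left, 25 genes) and mitotic cell cycle gene (right, 21 genes) in each control, BPE and BPS library, as log2(FPKM + 1), ordered by the BPS minus BPE difference. The BPE points lie to the left of the BPS points for most genes of both lists. For LRX1 the controls overlap BPS, while for CDKB2;1 they lie between BPE and BPS.

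Wall-loosening and water channel genes were higher in BPS as well. Of 26 tested xyloglucan endotransglucosylases, which cut and rejoin wall polymers, 17 were higher and 2 lower, with a median of 1.44. Those called made up 73.1%, against 39.4% of all genes. XTH17 was at 2.76, 1.82 and 5.88 FPKM in BPE, 93.2, 123 and 109 in BPS and 25.0, 17.5 and 43.3 in the controls, with the controls between the groups (4.70 ± 0.55, adjusted p = 0.000106). XTH19 was at 10.3, 10.1 and 15.4 FPKM in BPE and 228, 242 and 188 in BPS (4.11 ± 0.52, adjusted p = 0.000154), and XTH15 and XTH16 differed by 2.79 ± 0.35 (adjusted p = 0.000155) and 3.49 ± 0.47 (adjusted p = 0.000197). XTH17 to XTH19 resemble each other, so single values are uncertain.

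Of 27 aquaporins 16 were higher in BPS and 2 lower, 66.7% in all against 39.4% of all genes. Past 2-fold, 9 were higher, against 8.43% of all genes. The summed level was 4870 to 5250 FPKM in BPS, against 2860 to 3190 in BPE and 2820 to 3210 in the controls. PIP2;4, a water channel of the plasma membrane, was at 23.9, 18.1 and 30.3 FPKM in BPE, 129, 151 and 122 in BPS and 75.5, 68.6 and 64.9 in the controls (2.45 ± 0.29, adjusted p = 0.000112). PIP1;5 was at 43.4, 52.9 and 57.4 FPKM in BPE and 162, 195 and 163 in BPS (1.74 ± 0.18, adjusted p = 7.36e-05). TIP1;2, a channel of the vacuole and the most abundant of the family, was at 505, 518 and 453 FPKM in BPE and 1058, 1297 and 1213 in BPS (1.27 ± 0.22, adjusted p = 0.000651). In each of these the bisphenol groups did not overlap. The boric acid channel gene NIP5;1 differed by 1.34 ± 0.16 (adjusted p = 0.000121).

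Redox enzymes, the subject of the study, differed mainly in the class III peroxidases of the cell wall. Of 71 members 58 were tested, and 28 were higher in BPS and 9 lower, with a median of 0.68. Those called made up 63.8%, against 39.4% of all genes. PER42, the most abundant, was at 755, 794 and 800.0 FPKM in BPE, 1336, 1695 and 1933 in BPS and 892, 856 and 1072 in the controls (1.06 ± 0.19, adjusted p = 0.000743). PER27 was at 82.6, 76.0 and 126 FPKM in BPE and 354, 419 and 374 in BPS (2.03 ± 0.25, adjusted p = 0.000137), and PER24 at 3.66, 3.17 and 3.65 FPKM in BPE and 21.4, 25.3 and 27.5 in BPS (2.51 ± 0.37, adjusted p = 0.000271). PER34 was the reverse, at 1069, 760.0 and 561 FPKM in BPE, 236, 235 and 268 in BPS and 145, 170.0 and 107 in the controls (-1.64 ± 0.24, adjusted p = 0.000271). Both bisphenol groups were above control for PER34, at 2.47 in BPE (adjusted p = 0.000172) and 0.83 in BPS (adjusted p = 0.0247).

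Fewer members were called in the other redox lists. Among superoxide dismutases and their copper chaperone CCS 25.0% were called, and among tested NADPH oxidases 20.0%, against 39.4% of all genes. Of the 8 genes for dismutases and chaperone, FSD1, an iron dismutase, was lower in BPS. It was at 27.7, 93.9 and 104 FPKM in BPE against 19.6, 17.2 and 29.5 in BPS. BPE replicate 1 lay inside the BPS range (-1.55 ± 0.43, adjusted p = 0.011). The copper and zinc enzyme CSD1 was higher in BPS, at 445, 265 and 266 FPKM in BPE against 469, 567 and 467 in BPS (0.66 ± 0.19, adjusted p = 0.0121). FSD1 was not called without BPE replicate 2 (-1.28) or 3 (-1.21) and stood at -2.15 without BPE replicate 1. CSD1 was not called without BPS replicate 2 (0.57), BPE replicate 2 (0.53) or BPE replicate 3 (0.54). Of 26 tested genes of hydrogen peroxide scavenging 3 were higher and 4 lower, 26.9% in all against 39.4% of all genes. CAT1, a catalase gene, was at 37.4, 33.0 and 24.1 FPKM in BPE, 19.4, 7.85 and 8.38 in BPS and 12.8, 17.36 and 6.83 in the controls (-1.43 ± 0.37, adjusted p = 0.00775), and DHAR1, which regenerates ascorbate, differed by -0.72 ± 0.18 (adjusted p = 0.00522). Of 5 tested NADPH oxidases RBOHA was lower in BPS (-0.82 ± 0.18, adjusted p = 0.00268). RBOHD, the most abundant, was at 43.9, 51.4 and 59.7 FPKM in BPE and 241, 234 and 54.4 in BPS and was not called, with an interval of 0.10 to 2.88 and adjusted p = 0.0817. BPS replicate 3 lay inside the BPE range for RBOHD, and the value was 2.19 without it.

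Touch and early stress genes, which answer mechanical and other stimuli within minutes, were higher in BPS for 11 of 22 members and lower for none, with a median of 1.97. The median against control was 2.57 in BPS, with 13 called higher, and 0.44 in BPE, with 0 called in either direction. Of all genes, 12.3% were called higher in BPS, and 14.3% were called in BPE. TCH2, a calmodulin-like gene, was at 23.8, 23.5 and 35.7 FPKM in BPE, 308, 409 and 305 in BPS and 34.3, 31.7 and 64.8 in the controls (3.59 ± 0.47, adjusted p = 0.000174). ERF105 was at 7.25, 5.07 and 6.97 FPKM in BPE and 37.1, 144 and 191 in BPS (3.79 ± 0.54, adjusted p = 0.000253), and at 4.50 without BPS replicate 1. SZF1, a zinc finger gene, was at 16.8, 22.1 and 24.0 FPKM in BPE and 409, 628 and 186 in BPS (4.06 ± 0.82, adjusted p = 0.00172), and ZAT10 differed by 2.66 ± 0.63 (adjusted p = 0.00449).

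BPS replicate 3 departed from the other BPS libraries in part of this list. WRKY40, the most abundant member, was at 50.5, 54.6 and 101 FPKM in BPE and 795, 716 and 78.0 in BPS, where replicate 3 lay inside the BPE range. It was not called, at 2.42 (interval -0.02 to 4.86, adjusted p = 0.105), and stood at 3.51 without BPS replicate 3. The count of members called higher was 7 without BPS replicate 2. Jasmonate genes showed the same library apart, with replicate 3 the lowest BPS library for 20 of 23 tested members. Their summed level was 5230, 3490 and 844 FPKM in BPS replicates 1, 2 and 3, against 1440 to 2380 in BPE and 1940 to 3020 in the controls. Of these 23 genes 1 was higher in BPS and 4 lower, 21.7% in all against 39.4% of all genes. Without BPS replicate 3, 4 were higher. The locus AT2G38240, described with the largest differences, and 3 related loci were written into this list and left out because their symbols did not match the annotation.

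MYC2, the central jasmonate regulator, was at 96.8, 75.2 and 88.6 FPKM in BPE and 427, 541 and 169.5 in BPS, called at 1.96 ± 0.58 (adjusted p = 0.0153) and not called without BPS replicate 2 (1.63) or BPE replicate 2 (1.86). JAR1, which makes the active hormone, was lower at 121, 183 and 167 FPKM in BPE against 29.7, 36.6 and 40.7 in BPS (-2.10 ± 0.36, adjusted p = 0.00064). AOC2, an enzyme of jasmonate synthesis with close copies whose fragments could be split, was at 52.8, 73.9 and 74.0 FPKM in BPE and 17.1, 3.94 and 1.58 in BPS (-3.45 ± 0.56, adjusted p = 0.00046), and at -4.23 and -2.83 without BPS replicate 1 or 3. Of 17 tested ethylene genes 3 were higher and 5 lower, 47.1% in all against 39.4% of all genes. ACS6, which makes the ethylene precursor, was at 41.2, 51.5 and 48.0 FPKM in BPE and 272, 438 and 177 in BPS (2.54 ± 0.63, adjusted p = 0.00587). Higher ethylene genes numbered 5 without BPS replicate 3, and lower ones 3 without BPS replicate 2 or BPE replicate 2. Of 17 tested salicylic acid genes 4 were higher and 2 lower, 35.3% in all against 39.4% of all genes. The higher count rested on single libraries, at 10 without BPS replicate 3, 2 without BPS replicate 1, 0 without BPS replicate 2 and 1 without BPE replicate 1 or 2.

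Among lists where the groups differed in few genes, photosynthesis stood out because both lay above control. Of 37 tested members 4 were higher in BPS and 0 lower (10.8%, against 39.4% of all genes), with a median of -0.01 between the groups and medians of 1.43 in BPS and 1.38 in BPE against control. Against control, 29 members were called higher in BPS and 31 in BPE, where 12.3% and 9.08% of all genes were. Their summed level was 1150, 613 and 1700 FPKM in BPS replicates 1, 2 and 3, 777 to 966 in BPE and 194 to 454 in the controls. BPS replicate 2 was the lowest BPS library for all 37. PRK, an enzyme of carbon fixation, was at 2.05, 1.92 and 1.74 FPKM in BPE, 6.48, 5.67 and 10.4 in BPS and 0.584, 1.22 and 0.574 in the controls (1.52 ± 0.26, adjusted p = 0.000603). The count was 7 higher without BPS replicate 2, 2 without BPE replicate 1, and 1 higher and 3 lower without BPS replicate 3.

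Of 16 shoot markers outside photosynthesis 11 did not pass the filter, none of them above 0.631 FPKM in the 6 libraries, and MUTE, YAB1 and YAB5 were at 0 in all 6. The 5 tested markers summed to 48.0 to 72.6 FPKM in BPS, 27.5 to 36.2 in BPE and 31.6 to 40.3 in the controls. Of these 5, the epidermal genes PDF1 (1.04 ± 0.29, adjusted p = 0.0122) and ATML1 (0.61 ± 0.21, adjusted p = 0.0327) were higher in BPS. With 0 lower, 40.0% were called, against 39.4% of all genes. PDF1 was not called without BPS replicate 3 (0.88), and ATML1 not without BPS replicate 2 or 3 or any BPE library, at 0.53 to 0.65. Whether green tissue bears on any difference between the groups was not tested. Of 9 tested chlorophyll synthesis genes 2 were higher in BPS (22.2%), among them GUN5, a subunit of magnesium chelatase (1.09 ± 0.22, adjusted p = 0.00172). The count was 1 without BPE replicate 2 or 3. Of 15 hypoxia genes 3 were lower and 1 higher, 26.7% in all against 39.4% of all genes. Their medians against control were -1.35 in BPS and -1.21 in BPE. AlaAT1, an alanine aminotransferase gene, was at 132, 172 and 155 FPKM in BPE and 102, 76.5 and 74.4 in BPS (-0.86 ± 0.18, adjusted p = 0.00236). The lower count was 1 without BPS replicate 1 or BPE replicate 2.

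Among genes of phenolic pathways, of 11 tested flavonoid genes 7 were higher in BPS and 0 lower, 63.6% against 39.4% of all genes. Medians against control were -0.67 in BPS and -1.23 in BPE. TT4, chalcone synthase, was at 189.5, 133 and 115 FPKM in BPE, 281, 258 and 209.8 in BPS and 293, 264 and 305 in the controls (0.80 ± 0.21, adjusted p = 0.00851). FLS1, flavonol synthase, was at 14.7, 14.7 and 16.2 FPKM in BPE and 34.1, 33.1 and 29.9 in BPS, both below 62.3, 50.6 and 71.8 in the controls (1.04 ± 0.23, adjusted p = 0.00303). Of 21 tested lignin genes 5 were higher and 5 lower, close to the share of all genes called in each direction. CAD5, an enzyme of the last step to lignin precursors, was at 411, 445 and 378 FPKM in BPE and 66.0, 98.0 and 88.1 in BPS (-2.29 ± 0.34, adjusted p = 0.000284). CAD4, of the same step, went the other way at 87.1, 63.8 and 81.5 FPKM in BPE and 206, 262 and 255 in BPS (1.63 ± 0.25, adjusted p = 0.000357). The lower count was 3 without BPS replicate 1 and 2 without BPE replicate 3.

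Of 25 Casparian strip and suberin genes, which seal the endodermis, 8 were higher in BPS and 2 lower, 40.0% in all against 39.4% of all genes. Without BPS replicate 1, 14 were higher. CASP1 was at 73.4, 81.3 and 109 FPKM in BPE, 139.6, 173 and 169 in BPS and 115, 115 and 115 in the controls (0.88 ± 0.22, adjusted p = 0.00621). MYB41, a suberin regulator answering abscisic acid, was lower at 30.4, 24.4 and 13.9 FPKM in BPE against 2.398, 4.58 and 5.60 in BPS, with 3.41, 5.56 and 1.65 in the controls (-2.19 ± 0.38, adjusted p = 0.000726).

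The remaining lists were mixed or small. Of 16 tested heat shock genes 8 were lower in BPS and 0 higher, and 5 were lower without BPE replicate 1 or 2. HSP17.4, a small chaperone, was at 5.11, 4.91 and 3.79 FPKM in BPE and 1.67, 1.203 and 0.610 in BPS (-1.40 ± 0.24, adjusted p = 0.00059). Of 9 tested type-A cytokinin response regulators 4 were lower and 1 higher, 55.6% in all against 39.4% of all genes. ARR7 was at 62.9, 44.3 and 79.5 FPKM in BPE, 7.71, 16.4 and 12.8 in BPS and 41.6, 60.3 and 79.8 in the controls (-2.27 ± 0.47, adjusted p = 0.002). The lower count was 2 without BPS replicate 1 or BPE replicate 1. Of 27 tested auxin genes 10 were higher and 5 lower, 55.6% in all against 39.4% of all genes. The smallest adjusted p was that of LAX3, an auxin importer gene, at 29.5, 17.1 and 20.8 FPKM in BPE and 46.1, 62.9 and 66.8 in BPS (1.36 ± 0.22, adjusted p = 0.00052).

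Of 19 tested camalexin and indolic defence genes 5 were lower and 1 higher, 31.6% in all against 39.4% of all genes. MYB122, a regulator of indolic glucosinolates, was at 16.4, 9.62 and 11.0 FPKM in BPE and 1.58, 1.66 and 0.802 in BPS (-2.50 ± 0.30, adjusted p = 0.000123). The lower count was 8 without BPS replicate 1 and 3 without BPS replicate 2, and the higher one 4 without BPS replicate 3. Of 7 tested aliphatic glucosinolate genes 1 was higher in BPS and 0 lower (14.3%). Of 22 tested genes of the mitochondrial genome 8 were lower in BPS and 0 higher, 36.4% in all against 39.4% of all genes. The count was 4 without BPS replicate 1 and 5 without BPE replicate 1 or 2. Of 4 tested chloroplast genes 0 were called by limma, and the one with the smallest p, ATCG00790, had an interval of -1.31 to -0.12 (adjusted p = 0.0536).

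**Figure D5:**
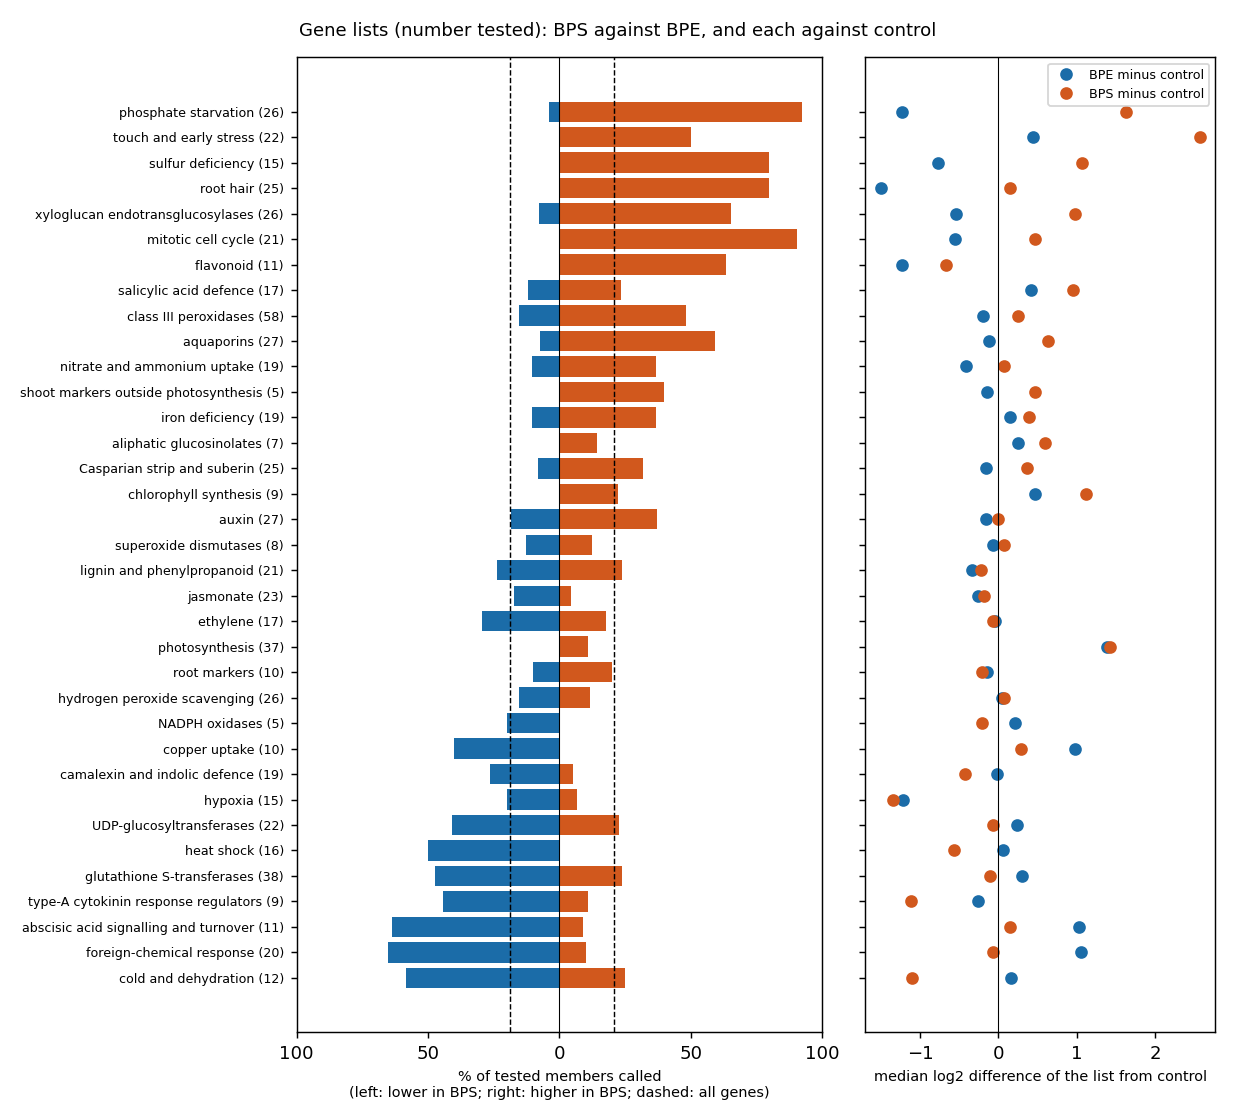
For each of the 35 gene lists, the share of tested members called lower (left bars) or higher (right bars) in BPS than in BPE, with dashed lines at the share of all genes (18.6% and 20.8%), and at right the list's median log2 difference from control in BPE and BPS. Numbers in brackets are the members tested. Phosphate starvation, sulfur deficiency and root hair have medians below 0 in BPE and above 0 in BPS, while photosynthesis has nearly the same median in both.

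Of the 30 genes with the largest differences without overlap, several lie outside the lists as tested. In the higher direction, OCT1, a carnitine transporter gene, was at 0.300, 0.694 and 2.08 FPKM in BPE and 106, 141 and 164 in BPS (6.17 ± 1.13, adjusted p = 0.000974). ERF11, an ethylene-response repressor gene, was at 2.09, 4.08 and 6.57 FPKM in BPE and 119.8, 246 and 68.2 in BPS, with 6.04, 5.47 and 8.54 in the controls (4.70 ± 0.82, adjusted p = 0.000721). AT5G04120, annotated as a phosphoglycerate mutase family protein, was at 4.47, 2.22 and 4.94 FPKM in BPE against 98.6, 156 and 126 in BPS and 183, 91.3 and 199.5 in the controls, so BPE lay below both (4.74 ± 0.84, adjusted p = 0.000805). Its level was also low in BPB replicates 1 and 2, at 2.06 and 3.85 FPKM. CYP716A2 and its neighbour AT5G36130, both annotated as cytochrome P450 genes, were at 16.9, 61.2 and 28.0 and 18.0, 62.8 and 30.3 FPKM in the BPS libraries and differed by 4.82 ± 0.75 (adjusted p = 0.000387) and 4.76 ± 0.77 (adjusted p = 0.000455). The others were AT5G17340 (5.35), AT3G25240 (4.86, and 5.46 without BPS replicate 1) and AT3G17998 (4.82, and 5.97 and 4.14 without BPS replicate 1 or 3).

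In the lower direction the largest difference was that of AT2G38240, annotated as an oxygenase, at 198, 237 and 304 FPKM in BPE, 15.9, 0.855 and 0.0413 in BPS and 463, 347 and 337 in the controls. The BPS libraries spread widely below BPE and the controls, and the difference of -6.25 ± 0.86 (adjusted p = 0.000207) was -7.45 without BPS replicate 1 and -5.44 without BPS replicate 3. ABR1, an AP2-type repressor of abscisic acid responses, was at 185, 307 and 332 FPKM in BPE, 16.6, 2.69 and 1.29 in BPS and 477, 392 and 411 in the controls (-5.66 ± 0.72, adjusted p = 0.000155), with -6.52 and -5.05 without the same libraries. AT5G16010, annotated in a steroid dehydrogenase family, was at 599, 594 and 462 FPKM in BPE and 11.6, 14.1 and 11.4 in BPS, even across each group (-5.37 ± 0.65, adjusted p = 0.000129). The others were AT5G54300 (-6.15), AT5G01380 (-5.30, and -6.12 and -4.72 without BPS replicate 1 or 3), AT5G62360 (-5.15, and -5.96 without BPS replicate 1), RAP2.9 (-5.15), ZF14, a MATE efflux gene (-4.43), PMAT1, an acyltransferase gene (-4.39), and AT2G15960 (-4.25).

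Some of the lower genes were above control in BPE and others below control in BPS. SEN1, a gene of senescence and darkness, was at 73.1, 63.8 and 56.3 FPKM in BPE, 5.05, 0.319 and 1.62 in BPS and 7.74, 10.8 and 0.538 in the controls, so the BPE libraries lay above both (-4.56 ± 0.83, adjusted p = 0.000927). AT5G43570, annotated as a serine protease inhibitor, was at 80.4, 49.8 and 37.4 FPKM in BPE, 0.664, 0.534 and 0.326 in BPS and 1.68, 2.13 and 0.929 in the controls, again with BPE above both (-5.17 ± 0.69, adjusted p = 0.000183). Against control, SEN1 was 3.59 higher in BPE (adjusted p = 0.0146) and AT5G43570 was 4.42 higher (adjusted p = 0.00246). CIB1, a partner of the blue light receptor, was at 39.4, 64.5 and 48.5 FPKM in BPE, 0.699, 1.204 and 2.32 in BPS and 68.0, 56.7 and 41.3 in the controls, so the BPS libraries lay below both (-4.45 ± 0.83, adjusted p = 0.00104), at -4.58 from control (adjusted p = 0.00179). TPS11, of the trehalose phosphate family, was at 245, 269 and 184 FPKM in BPE, 18.4, 8.16 and 10.9 in BPS and 91.6, 108 and 32.2 in the controls, above control in BPE at 1.73 (adjusted p = 0.0405) and below it in BPS at -2.43 (adjusted p = 0.00488). These levels were shared in part by libraries of the other compounds. SEN1 reached 46.4 FPKM in BPA and 41.1 in BPB, AT5G43570 reached 30.3 in BPA, and CIB1 was as low as 1.09 FPKM in BPA, 0.910 in BPB and 1.03 in BPF. RD29A was at 9.22, 3.87 and 5.48 FPKM in BPB, AT2G38240 at 1.32, 0.447 and 0.0826, and ABR1 at 5.52, 2.85 and 1.40, near or below their BPS levels. In BPA and BPF the lowest values of these 3 genes were 51.4, 26.5 and 42.9 FPKM, above every BPS library.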

How the data were processed

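Roots of wild-type seedlings were profiled by RNA sequencing, with 18 libraries in 6 groups of 3. The deposited values are FPKM per locus, made by the authors from their reads. The submitters' processing notes name HISAT2 2.0.4, StringTie 1.3.0, edgeR and the build TAIR10, without giving their roles. The deposited FPKM tables hold no read counts, so no count test was used. Fragment totals were recovered from the steps between low FPKM values. Within 0.02 of a whole fragment lay 56.2% to 60.4% of the values, against 4.0% for evenly spread ones, so whole counts were not rebuilt.

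Values were taken as log2(FPKM + 1) for the 19484 loci averaging 1 FPKM or more across all 18 libraries. limma 3.58.1 (R 4.3.3) was fitted with an intensity trend and 1 coefficient per group, with all 18 libraries sharing the estimate of spread. The contrast BPS minus BPE was adjusted by the Benjamini-Hochberg method over all loci tested, and a gene was called below an adjusted p of 0.05. The median half-width of the 95% interval was 0.40 on the log2 scale. The code was tested on simulated data. FPKM are relative to each library's total, so a change in a few abundant genes shifts the rest.

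Named genes are the 15 with the largest difference in each direction among called genes without overlap, and in each list up to 4 called members with the smallest adjusted p and the most abundant member. Where a list had no called member, the one with the smallest p was named. The comparison, its gene lists and its members were chosen with earlier results of these data known. Of 781 list entries 18 were left out because the symbol could not be matched to its locus. In the 35 lists 746 loci remained, beside the loci of both organelle genomes. Some loci are members of several lists. Gene names, annotations and promoters came from RefSeq (TAIR10.1), where 32835 of 33602 loci matched (97.7%). The files hold no coordinates, so the promoter positions are those of TAIR10.1 alone. Promoters of the phosphate starvation and the cold and dehydration lists were searched after those of the largest differences. Alternatives changed the scaling, the variance prior, the filter, the pseudocount, the libraries fitted, the call rule and the family of tests, added the replicate number, or left out single libraries.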

Additional observations from a re-analysis of the deposited data

How the results depend on the processing

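No gene called between BPS and BPE was called in the opposite direction under any alternative run. The 7686 calls became 8165 under quantile normalization, where 47.9% were higher in BPS against 52.8%, and 8290 with libraries shifted to the same median. They numbered 7795 with no filter, 7605 with a pseudocount of 0.1, 6435 with only the 6 libraries fitted, 8734 without BPA replicate 3 and BPB replicate 3, and 6186 when adjusted over all 10 pairs of compounds. With a 2-fold threshold added, 2996 remained, 1643 higher and 1353 lower, with 9 aquaporins and 11 mitotic genes higher. Leaving out single libraries gave 5566 to 7133 calls, 2787 to 4005 higher and 2779 to 3645 lower, the fewest without BPE replicate 2. Without BPS replicate 3, 45.4% of 6675 calls were higher. Root hair genes called higher ranged from 10 to 22 and touch genes from 7 to 12. The cause was not tested.

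The replicate block gave 7820 calls, 4263 higher and 3557 lower, and kept 7452 of the 7686 (97.0%). Deviations of BPS and BPE libraries with the same number correlated at -0.147, 0.02 and -0.249. With 3 libraries a group these values cannot settle whether libraries of the same number share a batch. Of 205 genes tracked one by one 185 were called, and 157 kept the call under every alternative but the 2-fold one. Among uncalled genes, NRT1.5 (0.30) ranged from -0.042 without BPS replicate 3 to 0.53 without BPS replicate 2, and BCAT4 (-0.18) from -0.87 without BPE replicate 1 to 0.47 without BPS replicate 2, with 0.37 without BPE replicate 3. Depth of 18000000 to 22100000 fragments limits statements on genes near 1 FPKM.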
